A study of Mus musculus with 48 samples.

Results

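Disease-associated microglia (DAM) genes are the genes that microglia raise around damaged or degenerating brain tissue. The 10 examined here were Trem2, Tyrobp, Clec7a, Itgax, Apoe, Lpl, Cst7, Cd68, Gpnmb and Spp1, chosen by name and read from the 55357 genes of the count table. All 10 were among the 21390 genes that passed the filter on low counts and were tested. They were followed through 48 libraries of polyadenylated RNA from the dorsal dentate gyrus of 24 adult C57BL/6J mice, aged 8 to 10 weeks. Each mouse received kainate or saline into the hippocampus of 1 side, and both dentate gyri were taken on day 3, 7 or 14. The ipsilateral, injected side is the epileptogenic zone (EZ) and the contralateral side is the peri-ictal zone (PIZ). This gave 12 groups of 4 mice, 2 male and 2 female each, with no sex given per library. The control mice also had a needle and saline placed in the EZ, so EZ saline is an injected control and PIZ saline is not. Each library came from 1 side of 1 mouse and was not pooled. The tissue was whole dentate gyrus with hilus and glia, in which more microglia and more RNA per microglial cell cannot be told apart.

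Microglia read their surroundings through surface receptors, and the DAM state is known from amyloid plaques, demyelination and neuronal injury. TREM2 binds lipids and lipoproteins and signals through the adaptor TYROBP (DAP12), whose phosphorylated tail recruits the kinase SYK. Cells that enter the state raise genes for lipid transport, lysosomal proteins and secreted factors, and lower homeostatic genes such as P2ry12 and Tmem119. In the kainate model, neurons of the injected hippocampus die, and microglia and astrocytes respond there.

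The libraries held 17762656 to 25712975 counts. Prox1, which marks granule cells, stood between 84 and 335 CPM (counts scaled to the normalized total of the library) in all 12 groups, so dentate tissue was present throughout. The summed level of 12 pan-microglia genes, such as Csf1r and C1qa, was 297 to 412 CPM in the PIZ of saline mice and 2708 to 10979 CPM in the EZ of kainate mice on day 7. The summed level of 12 markers of infiltrating monocytes and border macrophages was also higher in the EZ after kainate. It was 32.0 to 122 CPM on day 3 and 20.3 to 96.1 CPM on day 7, against 15.1 to 24.9 and 13.5 to 17.3 CPM after saline. Not every marker rose. On day 3 the groups overlapped there for the monocyte gene Ly6c2 (9.22 to 20.2 against 7.28 to 9.99 CPM). They also did for the border macrophage genes Mrc1, Lyve1 and Cd163 (0.268 to 1.87 against 1.19 to 2.09 CPM for Cd163). Ccr2, the chemokine receptor of inflammatory monocytes, reached 18.9 CPM, and the neutrophil gene S100a8 did not exceed 1.52 CPM in any group. Of these 12 genes, 6, 7 and 0 were called upregulated in the EZ on days 3, 7 and 14 and 0 in the PIZ on any day. The part of these cells in the results was not tested. Of 8 astrocyte genes 5 rose in the EZ on day 7, while 3 of 8 granule cell genes and 4 of 6 CA pyramidal genes fell, where 20.6% of all tested genes were called higher and 11.9% lower. Upregulated that day were also 3 of 6 endothelial, 2 of 6 oligodendrocyte and 4 of 8 meningeal, fibroblast and choroid plexus genes, with 1 of those 8 falling, and 0 of 5 blood genes. In the EZ on day 3 the granule cell genes summed to 529 to 971 CPM after kainate and 1090 to 1360 CPM after saline. The CA pyramidal genes summed to 146 to 235 and 362 to 547 CPM. The part of this in the results was not tested.

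Promoters of 4 members are shown because they hold, before the start, a motif of a factor known in activated macrophages. RefSeq promoter windows, from 250 bases before to 50 after the start of a transcript on GRCm38.p6, were present for 8 of the 10 genes. These 8 had 12 windows in all. They were searched on both strands for the AP-1 site TGAGTCA, whose reverse complement is TGACTCA, for the core of a PU.1 site, GAGGAAG, and for the E-box, CACGTG. No match overlapped another. The AP-1 letters were in the windows of Itgax, Cd68 and Gpnmb, and in 5.20% of 32851 windows. The PU.1 core was in those of Spp1 and Trem2, and in 13.6% of windows. The E-box was in none of the members' windows and in 7.15% of all. The 250 bases before the start follow, 5′ to 3′ on the gene's strand, with the motif in capitals: Itgax at chr7:128129300-128129549 (+), Cd68 at chr11:69666171-69666420 (−), Spp1 at chr5:104434861-104435110 (+) and Trem2 at chr17:48346151-48346400 (+).
Itgax: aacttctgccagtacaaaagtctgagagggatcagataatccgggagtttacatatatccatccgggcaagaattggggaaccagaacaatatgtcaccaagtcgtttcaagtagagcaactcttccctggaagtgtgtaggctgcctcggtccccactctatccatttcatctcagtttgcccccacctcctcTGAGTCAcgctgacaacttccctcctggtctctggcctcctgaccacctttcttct
Cd68: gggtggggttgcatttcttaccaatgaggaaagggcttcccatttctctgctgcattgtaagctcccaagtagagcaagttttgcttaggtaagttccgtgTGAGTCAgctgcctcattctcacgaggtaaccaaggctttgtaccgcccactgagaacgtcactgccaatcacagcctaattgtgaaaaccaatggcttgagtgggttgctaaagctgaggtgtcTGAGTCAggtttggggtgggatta
Spp1: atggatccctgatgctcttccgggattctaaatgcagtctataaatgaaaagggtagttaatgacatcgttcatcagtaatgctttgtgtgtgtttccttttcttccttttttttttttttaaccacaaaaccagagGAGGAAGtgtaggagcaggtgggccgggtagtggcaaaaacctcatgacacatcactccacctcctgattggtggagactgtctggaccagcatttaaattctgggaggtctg
Trem2: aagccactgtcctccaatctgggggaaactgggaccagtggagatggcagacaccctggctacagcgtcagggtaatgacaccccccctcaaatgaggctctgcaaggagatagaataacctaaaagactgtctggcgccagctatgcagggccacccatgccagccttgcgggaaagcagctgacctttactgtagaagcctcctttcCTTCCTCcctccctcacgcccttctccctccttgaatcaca
Cd68 holds the AP-1 letters at 2 places, 149 and 24 bases before the start, and Itgax at 1, 56 bases before it. In Spp1 the PU.1 core starts 113 bases before the start, and in Trem2 its reverse complement 41 bases before. The match in Gpnmb lies after the start, so its window is not shown. A match of letters is a description and does not show that a factor was bound.

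In the EZ, 9 of the 10 genes rose after kainate by day 7, with Lpl as the exception. A gene counted as upregulated when edgeR's quasi-likelihood test gave a Benjamini-Hochberg adjusted p below 0.01, over the 21390 genes of 1 comparison, and a change of more than 1.5-fold. By that rule 8 members rose on day 3, 9 on day 7 and 7 on day 14, where 16.0%, 20.6% and 2.30% of all tested genes rose. No member was called downregulated on any day on either side. The median log2 fold change of the 10 was 3.04, 4.27 and 2.62 on the 3 days, beside 0.03, 0.01 and 0.00 for all tested genes. Without kainate mouse 27 the median of day 14 was 1.36. Every kainate library lay above every saline library for 9 members on day 3, 9 on day 7 and 7 on day 14, an arrangement found for 23.9%, 23.7% and 4.58% of tested genes.

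**Figure D1:**
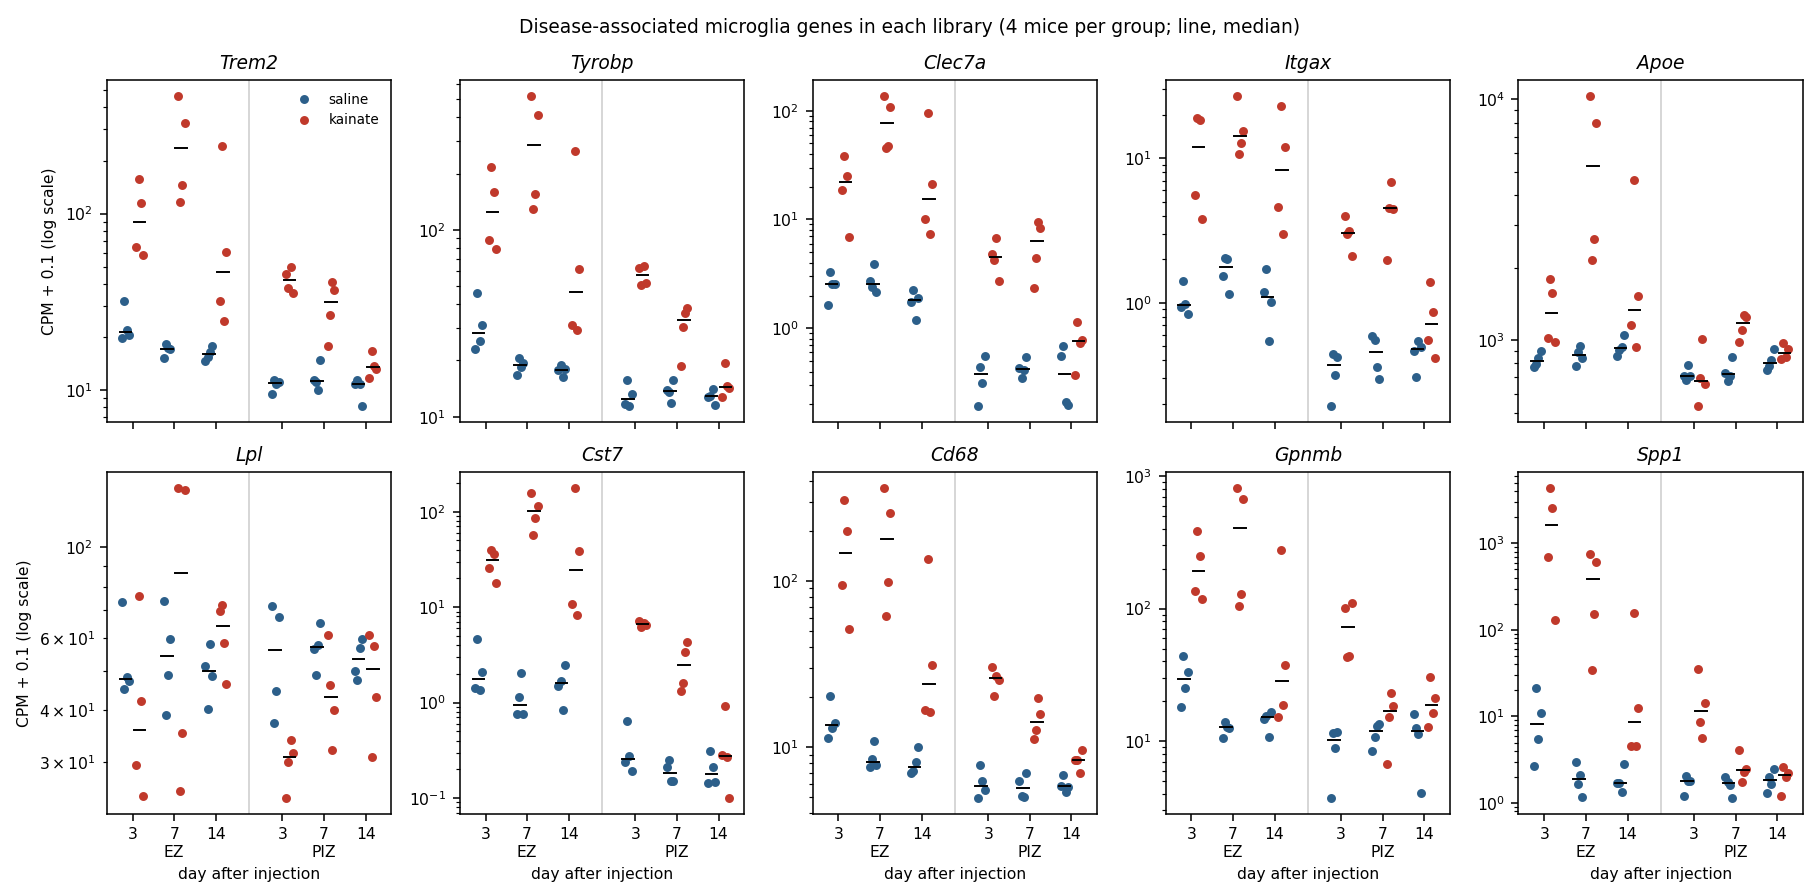
CPM + 0.1 (log scale) of each of the 10 genes in all 48 libraries, by zone and day after injection, with kainate in red, saline in blue and a black line at the median of 4 mice. In the EZ on day 7 the kainate points of every gene except Lpl lie above the saline points, whereas in the PIZ on day 14 the groups overlap for 8 of the 10.

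Trem2, at chr17:48653429-48661175 on GRCm39, stood at 116, 146, 327 and 466 CPM in the 4 EZ kainate libraries of day 7. The saline libraries of that day and side held 15.0 to 18.2 CPM. All 4 kainate mice were above the controls, with mice 35 and 21 at the high end. The log2 fold change was 3.97 ± 0.46 (SE, n = 4 mice per group; adjusted p = 2.74e-08). Its adaptor Tyrobp (chr7:30113170-30117010) held 130, 155, 411 and 522 CPM in the kainate libraries of day 7 and 16.7 to 20.5 CPM in the saline ones. It had log2 fold changes of 2.13 ± 0.43, 4.02 ± 0.47 and 2.46 ± 0.44 on days 3, 7 and 14, and those of Trem2 were 2.08 ± 0.43, 3.97 ± 0.46 and 2.49 ± 0.44.

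Clec7a (chr6:129438554-129449742) encodes dectin-1, a pattern-recognition receptor for beta-glucan. It stood at 6.86, 18.4, 25.2 and 37.9 CPM on day 3, at 45.4, 46.8, 107 and 137 CPM on day 7 and at 7.31, 9.98, 21 and 94.4 CPM on day 14 in the EZ after kainate. EZ saline libraries held 1.08 to 3.82 CPM over the 3 days, so the groups did not overlap on any day. Itgax (chr7:127728668-127749829) encodes CD11c, an integrin chain of dendritic cells and activated microglia. Its kainate libraries held 3.70, 5.47, 18.2 and 18.9 CPM on day 3 and 10.5, 12.7, 15.4 and 26.9 CPM on day 7. Its log2 fold change was nearly level over the 3 days, at 3.62 ± 0.53, 3.37 ± 0.51 and 3.38 ± 0.53.

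Cst7 (chr2:150412284-150420864) encodes cystatin F, an inhibitor of lysosomal cysteine proteases. It stood at 56.7, 86.6, 116 and 156 CPM in the EZ on day 7 after kainate and at 0.659, 0.663, 1.04 and 1.96 CPM after saline. No kainate mouse came near a control, and the log2 fold change was 6.59 ± 0.71 (adjusted p = 1.65e-08), or 96.1-fold. Cd68 (chr11:69555037-69557067), a macrophage lysosomal glycoprotein, held 61.1, 98.6, 257 and 363 CPM on day 7 after kainate and 7.45 to 10.7 CPM after saline. It was raised 11.1-fold on day 3, 22.8-fold on day 7 and 6.26-fold on day 14. Gpnmb (chr6:49013426-49047863), a transmembrane glycoprotein of phagocytes, held 104, 130, 677 and 817 CPM in the kainate libraries of day 7 against 10.5 to 13.8 CPM in saline. The same pair of mice, 21 and 35, made up the high end. On day 14 its kainate libraries (15.1, 18.7, 37.7 and 275 CPM) overlapped the saline ones (10.6 to 16.6 CPM), and edgeR did not call the gene (adjusted p = 0.0111), whereas DESeq2 did (adjusted p = 0.00103).

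Spp1 (chr5:104582165-104589235) encodes osteopontin, a secreted phosphoprotein that binds integrins and CD44. On day 3 the EZ kainate libraries held 129, 701, 2557 and 4400 CPM, and the saline libraries held 2.56, 5.35, 11 and 21.1 CPM. On day 7 the kainate libraries held 34.7, 151, 615 and 763 CPM and the saline ones 1.08 to 2.86 CPM. The levels of day 3 reached higher than those of day 7 in both treatments, though the ranges of the 2 days overlapped in each. The log2 fold change was 7.61 ± 1.05 on day 3 and 7.71 ± 1.10 on day 7, the largest of the 10 genes on each of these days. Per kilobase of exon, Spp1 had the highest median level of the 10 in the EZ on day 3 after kainate, at 573 CPM per kb with a range of 45.3 to 1548, which overlapped Apoe at 320 (242 to 444). On day 14 its median was 2.99 CPM per kb, the ninth of the 10.

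Apoe (chr7:19430034-19434947), the main apolipoprotein of the brain, is also made by astrocytes and was abundant without kainate, at 674 to 1047 CPM in all 24 saline libraries. Among the 6 comparisons with saline it was called in the EZ on day 7 alone, where it rose to 2146, 2621, 7965 and 10360 CPM, a log2 fold change of 2.74 ± 0.36 (adjusted p = 7.92e-08). On day 3 its 4 kainate libraries, at 982 to 1796 CPM, lay above the saline ones at 775 to 903 CPM, yet the log2 fold change of 0.69 ± 0.34 was not called (adjusted p = 0.0852). Lpl (chr8:69284603-69360100), the lipase that frees fatty acids from lipoproteins and is also expressed by neurons, was not called in any comparison. On day 7 it stood at 137 and 139 CPM in mice 35 and 21 and at 25.4 and 35.1 CPM in mice 23 and 26, on either side of the saline libraries at 39 to 73.8 CPM. In the PIZ on day 3 its kainate libraries (24.4 to 33.8 CPM) lay below all saline ones (37.1 to 71.7 CPM), which held for 13.6% of tested genes, and the adjusted p was 0.0598.

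**Figure D2:**
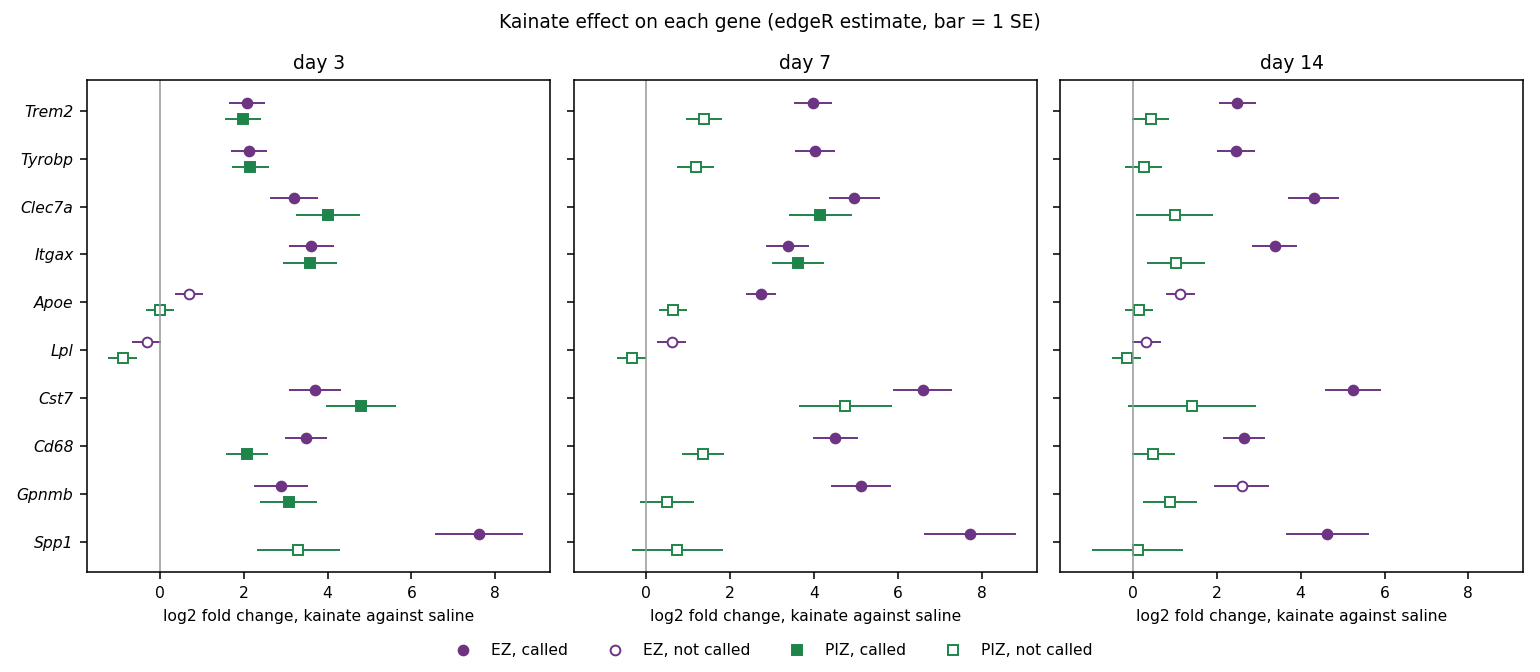
Log2 fold change of kainate against saline (x axis; edgeR estimate with a bar of 1 SE, 4 mice against 4) for each gene in the EZ (circles) and PIZ (squares) on days 3, 7 and 14, filled where called. On day 3 Trem2, Tyrobp and Itgax have nearly the same estimate in both zones, on day 7 Clec7a and Itgax are the only filled squares, and on day 14 no square is filled.

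In the EZ on day 3, mouse 38 had the highest and mouse 44 the lowest level of all 10 genes among the 4 kainate mice. On day 7, mouse 21 was highest and mouse 23 lowest for all 10, and on day 14 mouse 27 was highest for all 10. The summed pan-microglia level had the same order of mice on day 7, at 2708, 3953, 7798 and 10979 CPM in mice 23, 26, 35 and 21. On day 3 it was lowest in mouse 30, at 2126 CPM, beside 2244 CPM in mouse 44. On day 14 it was 5330 CPM in mouse 27 and 574, 734 and 1024 CPM in mice 36, 14 and 40. On each of the 3 days the summed level of the 8 granule cell genes was lowest in the mouse with the highest members. It was 529 CPM in mouse 38 against 638 to 971 CPM in the other three on day 3, and 518 CPM in mouse 27 against 874 to 1483 CPM on day 14. On day 7 it was 288 CPM in mouse 21 and 1040 and 1093 CPM in mice 26 and 23, with mouse 35 between them. The summed level of the 12 monocyte and border macrophage genes was highest in the same mouse as the members on each day and lowest in the same mouse on days 3 and 7. It was 122 CPM in mouse 38 and 32 CPM in mouse 44 on day 3, and 96.1 CPM in mouse 21 and 20.3 CPM in mouse 23 on day 7. On day 14 it was 37.7 CPM in mouse 27 against 10.8 to 14.9 CPM in the other three. The astrocyte genes of day 14 summed to 12064 CPM in mouse 27 and 5901 to 6702 CPM in the others. On the other days their order was not that of the members. On day 3 their sum was lowest in mouse 38, at 8605 CPM, and highest in mouse 44, at 10330 CPM. On day 7 it was highest in mouse 23, at 13350 CPM, beside 12824 CPM in mouse 21. The part of these cell types in the order was not tested. The severity of seizures and the accuracy of the injection are not in the labels used here, and their part was not tested.

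Mouse 27 decided much of the result of day 14. Without it 3 members stayed called in the EZ, namely Cst7, Clec7a and Itgax, with log2 fold changes of 3.63, 2.94 and 2.67, where 0.0323% of tested genes were called. Cst7 had stood at 178 CPM in mouse 27 and at 8.15, 10.7 and 38.2 CPM in the other three, against 0.738 to 2.40 CPM in saline. Even the lowest kainate library was therefore above the highest control. The calls of Spp1, Cd68, Trem2 and Tyrobp were lost without mouse 27, and their log2 fold changes went from 4.64, 2.65, 2.49 and 2.46 to 2.02, 1.42, 1.29 and 1.21. Without saline mouse 31, 4 members stayed called. A fit of only the 2 compared groups called 0 of them (adjusted p = 0.573, edgeR) with log2 fold changes about as large, such as 5.27 for Cst7 and 2.51 for Trem2. Limma-voom called 0 members and 0% of tested genes, both with the mouse as a replicate block, where the adjusted p of Cst7 was 0.0327, and without the block, where it was 0.0395.

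The other genes of the same response were counted beside the members. Of 25 further DAM genes, 19 rose in the EZ on day 3, 21 on day 7 and 12 on day 14, with medians of 1.49, 2.77 and 1.14 on the log2 scale. Of all tested genes 16.0%, 20.6% and 2.30% rose there. Lyz2, a lysozyme of phagocytes, rose by 5.90 ± 0.79 on day 7. Lgals3, which encodes galectin-3, rose by 5.59 ± 0.75, and Ctsd, the protease cathepsin D, by 4.45 ± 0.51. Fth1, the ferritin heavy chain present in all cells, was at 0.27 ± 0.13 (adjusted p = 0.0701). All 12 pan-microglia genes rose on each of the 3 days in the EZ, with medians of 1.92, 3.61 and 2.26, and Csf1r, the receptor that keeps microglia alive, was at 0.95 ± 0.29 on day 3 and 2.66 ± 0.31 on day 7.

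Of 12 homeostatic microglia genes 5 were called upregulated in the EZ on day 3, 12 on day 7 and 4 on day 14, with medians of 0.66, 2.16 and 1.05. P2ry12, the receptor by which resting microglia sense nucleotides, stood at 42.8 to 88.1 CPM in the EZ on day 3 after kainate and at 58.4 to 79.3 CPM after saline, so the groups overlapped. On day 7 it held 86.8 to 165 CPM after kainate and no more than 50.5 CPM after saline. Tmem119, a membrane protein of resident microglia, held 72.4 to 246 CPM that day against 22.4 to 24.3 CPM, and on day 14 its medians were 25.1 and 22.6 CPM. No homeostatic gene was called downregulated in either zone on any day. The list counts of day 14 rested on mouse 27 too, in a fit added after the data were seen. Without it 0 of the 25 further DAM genes, 0 of the 12 pan-microglia genes and 0 of the 12 homeostatic genes were called by edgeR in the EZ, with 11, 10 and 2 at an unadjusted p under 0.05, beside 1057 of 21688 genes, and medians of 0.40, 0.93 and 0.30.

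Genes tied to TREM2 and TYROBP signaling, both those that carry it and those that limit it, also rose. Of 18 listed 17 were tested, and 15 were called in the EZ on day 3, 17 on day 7 and 7 on day 14, and 13 in the PIZ on day 3. The shares of all tested genes were 16.0%, 20.6% and 2.30% in the EZ and 7.11% in the PIZ on day 3. Without mouse 27, when all 18 passed the filter, edgeR called 0 of them in the EZ on day 14, with 2 at an unadjusted p under 0.05. Inpp5d, the lipid phosphatase SHIP1 that restrains this signal, rose by 3.10 ± 0.38 on the log2 scale in the EZ on day 7. Ptpn6, the tyrosine phosphatase SHP-1, rose by 4.02 ± 0.46. Adam10, a sheddase of many cell types that can cleave TREM2, rose by 0.64 ± 0.11. In the PIZ the summed level of the list overlapped saline on day 7 (166 to 243 against 151 to 177 CPM) and on day 14 (158 to 195 against 151 to 174 CPM).

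In the PIZ, which received no injection, 7 of the 10 members were called upregulated on day 3, 2 on day 7 and 0 on day 14, where the rule called 7.11%, 0.150% and 0.00935% of tested genes. On day 3 the 7 were Trem2, Tyrobp, Clec7a, Itgax, Cst7, Cd68 and Gpnmb. Every kainate library was above every saline library for 8 members on day 3, 7 on day 7 and 2 on day 14, an arrangement seen for 17.1%, 7.63% and 3.70% of tested genes. On day 14 the count at an unadjusted p under 0.05 was also 0 of 10, beside 1274 of 21390 genes, and DESeq2 called none. Summed glial marker RNA was also higher on day 3. The pan-microglia genes summed to 1449 to 1822 CPM after kainate and 297 to 403 CPM after saline, and the 8 astrocyte genes to 9149 to 10255 and 4906 to 6448 CPM. Of these lists 12 of 12 and 3 of 8 genes were called upregulated, and the part of glial content in the results was not tested.

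Trem2 stood at 35.2, 37.7, 45.5 and 49.6 CPM in the PIZ on day 3 after kainate and at 9.42, 10.7, 10.9 and 11.3 CPM after saline. Its log2 fold change there, 1.98 ± 0.44, was close to the 2.08 ± 0.43 of the EZ. Cst7 held 6.06, 6.39, 6.73 and 7.09 CPM against 0.0911 to 0.535 CPM, so the groups were far apart. Spp1, by contrast, stood at 5.58, 8.57, 14.3 and 35.1 CPM in the PIZ against 129 to 4400 CPM in the EZ of the same mice. Its PIZ change of 3.30 ± 0.98 was not called by edgeR (adjusted p = 0.0125) but was by DESeq2 (adjusted p = 0.00078), and no kainate library reached down to the saline ones at 1.11 to 1.94 CPM. Limma-voom called 3 members on day 3 with the mouse as a replicate block and 4 without it, beside 5.87% and 5.91% of tested genes. With the block the log2 fold changes of those lost were 4.97 for Cst7, 4.03 for Clec7a, 3.58 for Itgax and 2.09 for Cd68. Their adjusted p in limma-voom was 0.0114 to 0.0443.

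On day 7 Clec7a and Itgax were called in the PIZ. Clec7a stood at 2.26, 4.35, 8.26 and 9.32 CPM after kainate and at 0.252 to 0.446 CPM after saline, a log2 fold change of 4.15 ± 0.75 (adjusted p = 0.00249). Itgax stood at 1.86, 4.37, 4.40 and 6.69 CPM against 0.198 to 0.493 CPM, a log2 fold change of 3.61 ± 0.61 (adjusted p = 0.0013). Both are genes that were near the limit of detection in the uninjected side of control mice, with 4 to 9 reads per library. In the PIZ that day the pan-microglia genes summed to 515 to 1101 CPM after kainate and 336 to 412 CPM after saline. The granule cell genes summed to 485 to 1082 and 1195 to 1446 CPM, and the part of either list in the calls was not tested.

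Cst7 rested on fewer reads still. Its PIZ saline libraries of day 7 held 1, 1, 2 and 3 reads, and the kainate libraries held 226 reads in all against 7. The ratio was 28.4, with an exact 95% interval of 13.5 to 71.4 that covers counting error only, and the adjusted p was 0.0192 in edgeR, which did not call it, and 3.04e-05 in DESeq2, which did. Gpnmb and Spp1, which had been high in the EZ, overlapped their controls in the PIZ on day 7, with 6.61 to 23.1 against 8.27 to 13.3 CPM and 1.64 to 3.98 against 1.04 to 1.92 CPM. The calls of Clec7a and Itgax were both lost without kainate mouse 26 or without saline mouse 33, 34 or 89, and Clec7a alone was lost without saline mouse 20. Limma-voom called neither, with the mouse as a replicate block (0.0701% of tested genes called) or without it (0.0514%), while the log2 fold changes stayed at 3.90 for Clec7a and 3.50 for Itgax with the block. With quality weights it called 7 members and 3.21% of tested genes.

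The difference between the zones was tested directly as the kainate effect in the EZ minus that in the PIZ. On day 7 it was larger in the EZ for 6 members, where 7.01% of tested genes were. This fit had no term for the mouse, though both sides came from the same mice. The differences on the log2 scale were 6.97 ± 1.52 for Spp1, 4.64 ± 0.93 for Gpnmb, 3.15 ± 0.70 for Cd68, 2.85 ± 0.61 for Tyrobp, 2.60 ± 0.60 for Trem2 and 2.11 ± 0.48 for Apoe. For Clec7a it was 0.81 ± 1.02 (adjusted p = 0.589), for Itgax -0.24 ± 0.81 (adjusted p = 0.837) and for Cst7 1.85 ± 1.93 (adjusted p = 0.514), errors too wide to show that the zones acted alike. With the mouse as a replicate block edgeR kept the 6 calls, at adjusted p of 0.00306 to 0.00623. Limma-voom without a block lost those of Cd68 (adjusted p = 0.0159) and Spp1 (adjusted p = 0.0288). In the edgeR fit without the block the 6 calls fell to 0 without kainate mouse 21 and to 1 without kainate mouse 35 or saline mouse 20 or 89. Without mouse 21 the differences were 6.72 for Spp1, 3.88 for Gpnmb, 2.55 for Cd68, 2.28 for Tyrobp, 1.99 for Trem2 and 1.6 for Apoe, with adjusted p of 0.0264 to 0.0418 in edgeR. That mouse was highest of 4 for all 10 members in the EZ and lowest of 4 for 8 of them in the PIZ. Its PIZ granule cell genes summed to 485 CPM, against 871 to 1082 CPM in the other three kainate mice, and the part of this in the result was not tested.

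On day 3 the zones differed for 0 members and for 0.0374% of tested genes, and 2 members and 3830 of the 21390 genes had an unadjusted p under 0.05. Spp1 had the largest of these differences, 4.30 ± 1.32 (adjusted p = 0.0931). On day 14 the test called 0 of the 10 and 0% of tested genes, with 7 members and 1561 genes at an unadjusted p under 0.05. DESeq2 called 0 members on both days.

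Between days, the kainate effect in the EZ was set against that of the day before it in the series. From day 3 to day 7 it was higher by 2.88 ± 0.88 for Cst7, 2.24 ± 0.88 for Gpnmb and 2.05 ± 0.48 for Apoe on the log2 scale, and 0 members were called against 0.112% of tested genes. The smallest adjusted p was 0.0298, for Apoe, and 6 members and 2572 genes had an unadjusted p under 0.05. From day 7 to day 14 the estimate was lower for 9 of the 10 and 0 were called, with 0.154% of tested genes called lower and 6 members and 7080 genes at an unadjusted p under 0.05. Without mouse 27 the test called 7 members and 2828 of 21688 tested genes lower, among the members Spp1 by -5.69, Gpnmb by -4.39 and Cd68 by -3.09, and neither Clec7a (-2.02), Itgax (-0.69) nor Lpl (-0.38) was among them. In the PIZ from day 3 to day 7, 0 members and 0.00935% of tested genes were called lower, with Gpnmb at -2.59 ± 0.91 (unadjusted p = 0.00707, edgeR) the only member at an unadjusted p under 0.05, as 2272 genes were. DESeq2 called 1 member higher from day 3 to day 7 in the EZ and 0 in the other 2 comparisons of days.

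To set the DAM genes against the general rise of microglial RNA, each was expressed as the log2 ratio of its level (CPM + 0.1) to the summed CPM of the 12 pan-microglia genes in the same library. By this measure 6 members were higher in every EZ kainate library than in every saline library on day 7, namely Trem2, Clec7a, Cst7, Cd68, Gpnmb and Spp1, and 0.449% of tested genes showed that arrangement. On day 3 it held for 5 members and 1.72% of genes, and on day 14 for 6 members and 0.220% of genes. In the PIZ it held for Clec7a, Itgax and Cst7 on both day 3 and day 7, when it held for 0.453% and 0.266% of genes, and for no member on day 14, but with a pseudocount of 1 CPM Clec7a and Itgax turned to -0.16 and -0.59 on day 3 and Cst7 overlapped on day 7. An exact two-sided permutation test of 4 against 4 gives such a gene p = 0.029, the smallest it can give. With 60 tests in the family, 35 would have to reach it to pass adjustment at 0.05, and none passed. The counts depended on the denominator. Against the 12 homeostatic genes 43 of the 60 passed, higher and lower ratios together. Of the members, 8, 8 and 7 were higher in every EZ kainate library on days 3, 7 and 14. In the PIZ they were then 8, 6 and 2, with Trem2 and Cd68 apart on day 14. Against C1qa, C1qb and C1qc 2, 4 and 3 members were higher in the EZ, and 1 in the PIZ on day 3. In every kainate library of the EZ 3, 2 and 1 members were then below saline. In the PIZ on day 3, 5 were below, namely Trem2, Tyrobp, Apoe, Lpl and Cd68. On day 7 in the PIZ 3 were above and 3 below. Itgax, Cd68 and Gpnmb on day 3 and Trem2 and Gpnmb on day 7 were then no longer apart in the EZ. With a pseudocount of 1 CPM the EZ counts were 4, 5 and 4, and 5 members were below in the PIZ on day 3. The share of all tested genes is not given for these denominators or this pseudocount, so these counts are no result about the members.

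Cst7 was raised furthest beyond the pan-microglia genes in the EZ on day 14 and second furthest, after Spp1, on days 3 and 7. Its log2 ratio was -5.82 ± 0.33 (SD, n = 4) after kainate and -8.89 ± 0.56 after saline in the EZ on day 7, a difference of 3.06. In the EZ it was separated in the same way on all 3 days against the homeostatic genes, against C1qa, C1qb and C1qc, and with a pseudocount of 1 CPM. Trem2 and Tyrobp, whose folds in CPM were large, moved by 0.31 and 0.34 beyond the list on day 7, and the direction of Trem2 turned to -0.11 against C1qa, C1qb and C1qc. In the PIZ on day 3 the difference for Trem2 was -0.27, with every kainate library below every saline one, as for 92.9% of tested genes. Against the homeostatic genes it was 0.62. The ratio of Apoe was -0.25 ± 0.28 after kainate and 0.75 ± 0.08 after saline in the EZ on day 7, and that of Lpl differed by -3.17; both were below in every kainate library, as were 95.6% of tested genes. The same held for both in the EZ on day 3 and the PIZ on day 3, as it did for 84.4% and 92.9% of genes, for Apoe alone in the EZ on day 14 (67.7% of genes) and for Lpl alone in the PIZ on day 7 (63.7% of genes). Against the homeostatic genes Apoe was not below in the EZ on any day, and Lpl was on days 3 and 7.

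**Figure D3:**
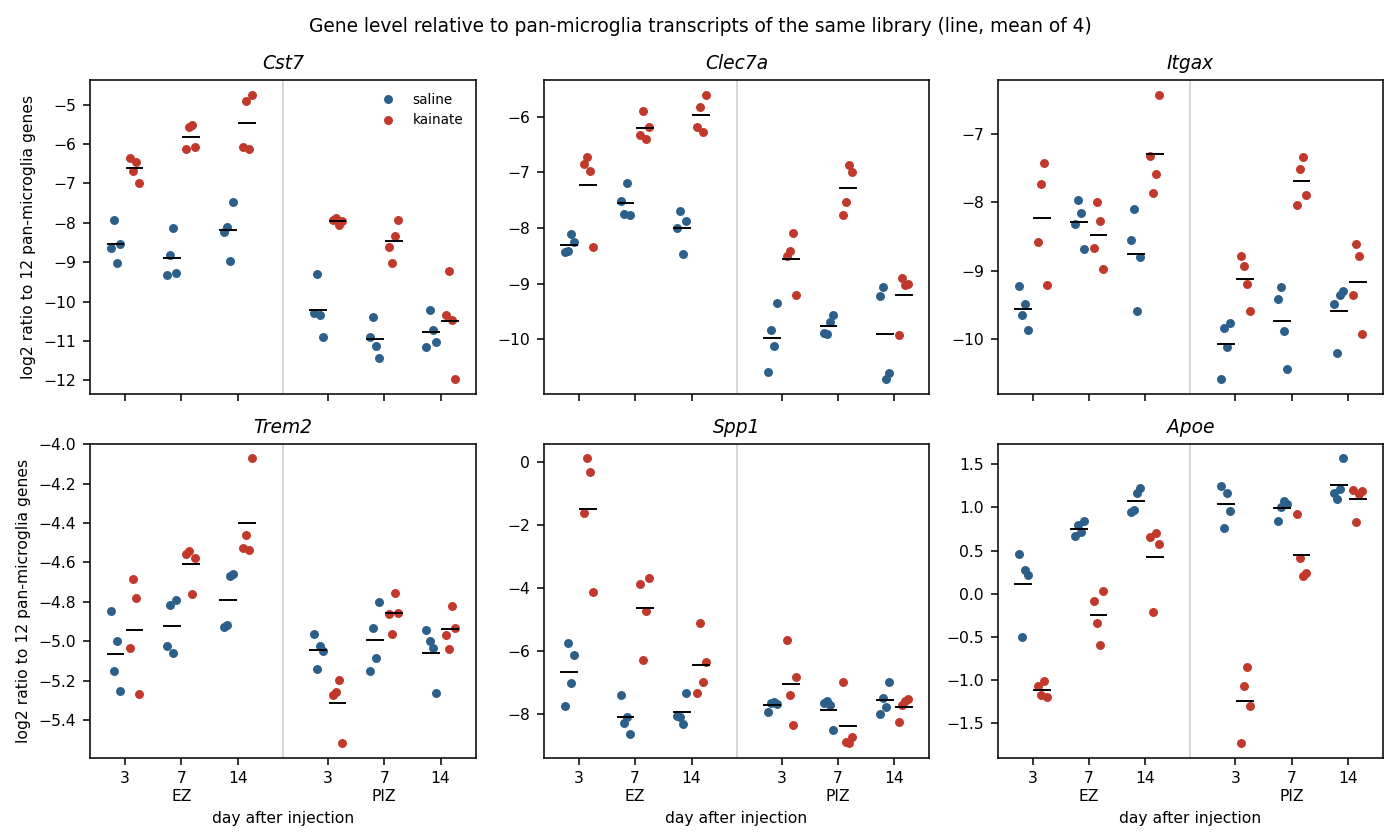
Log2 ratio of 6 members to the summed CPM of the 12 pan-microglia genes of the same library (y axis, separate scales), by zone and day, with kainate in red, saline in blue and a line at the mean of 4 mice. Cst7 is raised in the EZ on all 3 days and in the PIZ on days 3 and 7, Trem2 changes by 0.31 in the EZ on day 7, and Apoe is lower after kainate in the EZ on days 3 and 7.

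From day 3 to day 7 in the EZ of kainate mice the mean ratio changed by -3.15 for Spp1, with overlapping groups (exact permutation p = 0.0857; adjusted p = 0.171), and by 1.02, 0.86 and 0.80 for Clec7a, Apoe and Cst7, with groups apart (exact permutation p = 0.029 each; adjusted p = 0.114 over 20 tests). From day 7 to day 14 it was higher by 1.18 for Itgax and 0.21 for Trem2, again with groups apart (exact permutation p = 0.029 each; adjusted p = 0.114). These comparisons between days were chosen after the data were seen.

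The needle side of the control mice differed from the other side. Trem2, Tyrobp, Clec7a, Itgax, Cst7 and Cd68 were each higher in the EZ than in the PIZ of all 12 saline mice, which 1.25% of tested genes were. For Itgax mouse 31 was nearly a tie, at 0.443 CPM in the EZ and 0.44 CPM in the PIZ. The summed level of the 12 pan-microglia genes was also higher in the EZ of all 12, by 0.19 to 1.49 on the log2 scale with a mean of 0.66 ± 0.40 (SD), and its part in these differences was not tested. Cst7 stood at 0.659 to 4.50 CPM in the EZ and 0.0453 to 0.535 CPM in the PIZ, a mean log2 difference of 2.82 ± 0.74 (SD over 12 mice, prior count of 2). For Clec7a it was 2.61 ± 0.59 and for Itgax 1.61 ± 0.72, while Trem2, Tyrobp and Cd68 differed by 0.76 ± 0.37, 0.72 ± 0.42 and 0.75 ± 0.47. A gene with all 12 mice on one side has p = 0.000488 in the exact two-sided sign-flip test by construction, the smallest it can give. Of the other four, Apoe was higher in 11 mice (exact sign-flip p = 0.000977), Spp1 in 9 (exact p = 0.02) and Gpnmb in 8 (exact p = 0.00781).

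**Figure D4:**
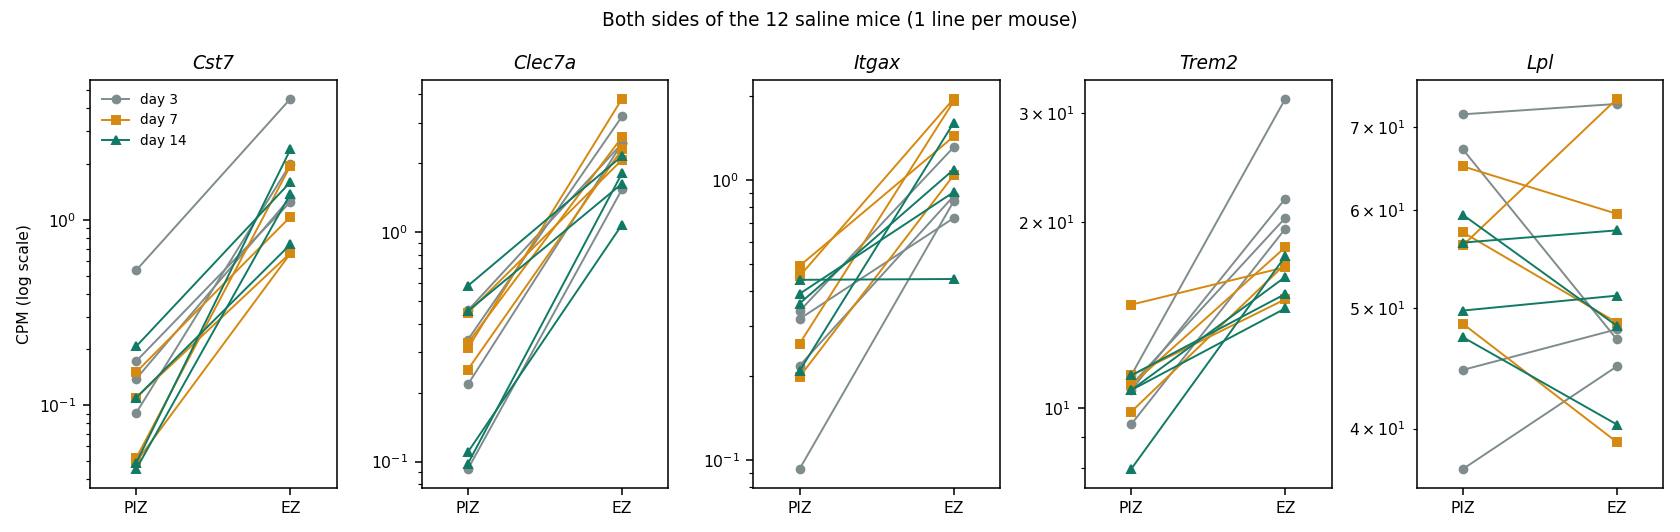
CPM (log scale) of 5 members in the PIZ and EZ of the 12 saline mice, joined by mouse and coloured by day. All 12 lines rise from PIZ to EZ for Cst7, Clec7a, Itgax and Trem2, and 6 of 12 do for Lpl. The Itgax line of mouse 31 is nearly flat (0.44 to 0.443 CPM).

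On day 3 the pan-microglia genes of saline mice summed to 564 to 1128 CPM in the EZ and 297 to 403 CPM in the PIZ, and on day 14 to 417 to 465 and 310 to 364 CPM. The astrocyte genes of day 3 were also higher in the EZ of all 4 saline mice, at 6698 to 9575 CPM against 4906 to 6448 CPM, and their part was not tested. Spp1 differed by a mean of 2.19 on the log2 scale on day 3 and by 0.23 and -0.0009 on days 7 and 14. Gpnmb differed by 1.81, 0.15 and 0.54. Cst7 differed by 2.84, 2.60 and 3.03, and Clec7a by 2.83, 2.69 and 2.32, and a change of these differences between days was not tested. Lpl differed by -0.07 ± 0.26 (exact sign-flip p = 0.368) and was higher in the EZ of 6 mice.

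In the edgeR fit over all genes, without a term for the mouse, 0 members were called higher in EZ than PIZ on any single day in saline mice, where 0.0281%, 0% and 0% of tested genes were. At an unadjusted p under 0.05 there were 8, 3 and 3 members and 1312, 322 and 522 of the 21390 genes, and DESeq2 called 2, 0 and 0. The 2 sides come from the same mice, and with the mouse as a replicate block edgeR called Cst7 on day 3 (3.26, adjusted p = 0.00725), beside 0.0608% of tested genes. Over the mean of the 3 days, a comparison chosen after the data were seen, Clec7a (2.81 ± 0.46, adjusted p = 0.00352) and Cst7 (3.52 ± 0.64, adjusted p = 0.00845) were called by edgeR, with 0.0234% of tested genes. With the replicate block the adjusted p in edgeR was 0.000596 for Clec7a and 3.57e-05 for Cst7, and 0.0561% of genes were called. Without the block at most 1 of the pair remained when any single saline mouse was left out, and neither without the filter on low counts.

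Among the non-members whose log2 CPM over the 48 libraries was most like the mean profile of the 10 were Lyz2, Lyz1, Cd84 and Npc2, with Pearson r of 0.987, 0.985, 0.980 and 0.979. The libraries share groups, mice and cell content, so r is a description. Lyz1 and Lyz2 are near-identical copies whose reads cannot be fully separated. Each member was also set against the mean of the other 9, and r was 0.984 for Trem2, 0.978 for Tyrobp, 0.970 for Cd68 and between 0.838 and 0.929 for Clec7a, Itgax, Apoe, Cst7, Gpnmb and Spp1. For Lpl it was 0.0899.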

How the data were processed

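The authors trimmed reads with fastp (0.20.1), aligned them to GRCm39 with HISAT2 (2.2.1) and counted primary alignments per Gencode M28 gene by strand with featureCounts (Subread 1.6.4), with reads shared between features or loci kept. The deposited values are raw counts, 17762656 to 25712975 per library (median 22108562.5). Genes passing filterByExpr (21390 of 55357) were normalized by TMM and fitted with 12 group means in edgeR 4.0.16 (robust quasi-likelihood) under R 4.3.3. CPM used TMM totals. SEs came from the unshrunken coefficient and its F. Alternatives used DESeq2 1.42.0 and limma 3.58.1. Exact tests used scipy 1.17.1. The fit was tested on simulated counts. No replicate pair agreed within sampling noise. Symbols came from Gencode M39 (98.9% of IDs matched). The 2 sides of a mouse share its number in the labels, so they are pairs; their residuals correlated by -0.0536 to 0.376 (consensus 0.163), and the mouse was a block in an alternative.

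The 10 genes and the lists were chosen with earlier results of these data known. From each list, the 2 genes of highest mean CPM and the 2 of largest absolute change in the EZ on day 7 could be named; cell type markers were fixed by name. A gene that the naming rule also covers is not reported here. The mean over 3 days of saline mice and the ratios between days were added after the data were seen. No fold change or p-value of the authors was used. P-values measure the spread between mice; intervals from counts cover counting error only.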

Additional observations from a re-analysis of the deposited data

Results flagged for a closer look

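The kainate effect on day 7 differed between the zones for 6 members in edgeR's test of the difference itself. It was larger in the EZ by 6.9701 on the log2 scale for Spp1, 4.6365 for Gpnmb, 3.1547 for Cd68, 2.8492 for Tyrobp, 2.6006 for Trem2 and 2.1053 for Apoe. The 4 EZ kainate libraries behind these differences spanned a wide range, with mice 21 and 35 above mice 23 and 26 for each of the 6 genes. Mouse 21, highest of 4 for all 10 members in the EZ, was lowest of 4 for 8 of them in the PIZ, where its 8 granule cell genes summed to 485 CPM against 871 to 1082 CPM in the other three. Without it 0 members were called, with estimates of 1.6 for Apoe to 6.72 for Spp1, and the part of granule cell content was not tested.

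In 120 groups of 4 libraries, 2 single libraries stood apart from the other three by Dixon's criterion. Trem2 in the PIZ of saline mouse 39 on day 14 was 7.98 CPM, below the others at 10.7 to 11.3 CPM. Lpl in the EZ of saline mouse 18 on day 3 was 73.1 CPM, above the others at 44.9 to 48.1 CPM. Chance alone would mark about 1 group in 20.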

How the results depend on the processing

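The 8 members called in the EZ on day 3 and the 9 on day 7 stayed at 8 and 9 without any 1 mouse. Of 705 alternatives to the 41 called log2 fold changes, 594 kept direction and call, 111 lost the call and 0 reversed. The EZ count of day 14 (7) was 0 with only the compared groups in the fit, 2 with limma-voom and quality weights, and 3 to 9 when leaving out each mouse. The PIZ count of day 7 (2) became 4 with only the compared groups and 7 with quality weights, and 0 to 2 when leaving out each mouse. For the difference between zones, day 3 went from 0 to 3 with quality weights, and day 7 from 6 to between 0 and 6 when leaving out each mouse. The rise from day 3 to day 7 (0) became 1 at an adjusted p threshold of 0.05, 1 in DESeq2, 4 with quality weights and 0 to 1 without each mouse. The fall from day 7 to day 14 (0) became 2 at 0.05, 8 with quality weights and 0 to 7 without each mouse. In saline mice, day 3 (0) became 2 in DESeq2 and 1 with quality weights, day 7 (0) became 1 with only the compared groups, and the mean of 3 days (2) became 0 without the low count filter, 6 with only the compared groups, 4 with quality weights and 0 to 1 without each mouse. The causes were not tested. Most of these alternative counts stand without the share of all tested genes, so they are no result about the members. Quality weights called 3.21% of tested genes in the PIZ on day 7, against 0.150% in the main fit. Size factors or library size in place of TMM changed none of the 16 counts.

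With the mouse as a replicate block (paired sides), limma-voom gave 0 in place of 7 in the EZ on day 14, 3 in place of 7 in the PIZ on day 3 and 0 in place of 2 in the PIZ on day 7. Limma-voom without the block, added after the data were seen, gave 0, 4 and 0 there and 0 in place of 2 for the mean of 3 days in saline mice, so these counts moved with the tool before any block. With edgeR in both fits, the block gave 1 in place of 0 for saline mice on day 3. No other count of members moved by more than 1.5 times in a fit with the block.

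Of 352 alternatives to the ratios to pan-microglia genes, 309 stayed within the spread between mice, 39 moved beyond it and 4 reversed. The homeostatic denominator gave 43 ratios past adjustment in place of 0, higher and lower ratios together. The reversals were Trem2 in the EZ on day 7 against C1qa, C1qb and C1qc (-0.11), Trem2 in the PIZ on day 3 against the homeostatic genes (0.62), and Clec7a (-0.16) and Itgax (-0.59) in the PIZ on day 3 with a pseudocount of 1 CPM. Depth limits Cst7, Clec7a and Itgax in the PIZ of saline mice, where libraries held as few as 1 to 2 reads.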
